A study of Mus musculus with 17 samples.

Results

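Fibroblast growth factor (FGF) ligand and receptor genes were followed in cultured mouse pancreatic stellate cells, the mesenchymal cells of the pancreas that become activated fibroblasts next to a tumour. The 10 genes are 7 ligands (Fgf1, Fgf2, Fgf7, Fgf10, Fgf18, Fgf21 and Fgf23) and 3 receptors (Fgfr1, Fgfr2 and Fgfr3), of 35896 gene IDs in the deposited tables. They were chosen by a measured value, the lower CPM (scaled read count) of Fgf23 with transforming growth factor beta (TGF-beta), so for these 10 genes TGF-beta against control is described without a test. All 10 passed the low-count filter that left 13923 genes for testing. Fgf21 (1 to 7) and Fgf18 (4 to 19) had the fewest counts in control libraries.

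Messenger RNA sequencing covered 17 libraries of 2 wild-type C57BL/6J stellate cell lines, PSC4 and PSC5, all kept in Matrigel, a basement membrane gel, and collected on day 4. Control medium gave 5 libraries (3 of PSC4, 2 of PSC5), and TGF-beta at 20 ng/mL in that medium gave 4. Medium conditioned by tumour organoids (CM) gave 4 libraries, and CM with 300 nM neratinib, an inhibitor of ERBB receptor tyrosine kinases, gave another 4. Each of the last 3 groups held 2 libraries per line. No library had neratinib without CM, so neratinib against control also holds the change from control medium to CM. Passages ran from 23 to 25 in PSC4 and from 27 to 28 in PSC5, with 1 passage for each replicate number of a line, and p-values measure the spread between these libraries only. Both CM groups carry a medium code, T8 on every replicate 1 and T6 on every replicate 2, so the code cannot be told apart from replicate number and passage. The organoids' own genotype is not given in the labels.

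FGFs are secreted or released proteins that act through receptor tyrosine kinases together with heparan sulfate, and signal mainly through the ERK pathway. FGF7 and FGF10 are made by mesenchyme and act on the epithelial splice form of FGFR2, and FGF10 is needed for the growth of the embryonic pancreas. FGF1 and FGF2 leave cells without a classical signal peptide, while FGF21 and FGF23 are hormones that need the co-receptors beta-Klotho and Klotho. FGF23, made mainly by bone, lowers blood phosphate, and FGF21 is a stress and metabolic hormone made mainly by liver.

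The 250 bases before the RefSeq start of the 4 ligands that differed most between control and TGF-beta are shown first (RefSeq, GRCm38.p6), because 3 of them (Fgf7, Fgf10 and Fgf23) were lower together and Fgf21 was higher. Capitals mark matches, on either strand, to any of 11 searched motifs, and positions count bases before the start. The windows are chr2:126034408-126034657 (Fgf7, plus strand), chr13:118714449-118714698 (Fgf10, plus), chr6:127072652-127072901 (Fgf23, plus) and chr7:45615491-45615740 (Fgf21, minus).
Fgf7: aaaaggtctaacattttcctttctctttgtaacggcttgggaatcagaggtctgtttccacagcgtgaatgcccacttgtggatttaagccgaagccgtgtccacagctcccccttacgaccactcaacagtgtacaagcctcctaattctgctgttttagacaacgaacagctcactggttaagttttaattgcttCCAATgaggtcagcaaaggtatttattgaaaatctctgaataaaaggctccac
Fgf10: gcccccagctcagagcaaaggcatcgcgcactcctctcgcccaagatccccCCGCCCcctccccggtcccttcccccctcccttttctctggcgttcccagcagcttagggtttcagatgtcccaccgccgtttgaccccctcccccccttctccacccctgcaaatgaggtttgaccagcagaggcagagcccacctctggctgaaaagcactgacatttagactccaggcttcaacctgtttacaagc
Fgf23: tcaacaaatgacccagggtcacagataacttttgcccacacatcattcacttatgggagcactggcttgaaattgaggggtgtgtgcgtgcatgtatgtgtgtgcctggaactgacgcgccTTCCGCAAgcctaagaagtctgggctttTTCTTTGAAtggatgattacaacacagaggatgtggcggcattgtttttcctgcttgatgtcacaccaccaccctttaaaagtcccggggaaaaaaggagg
Fgf21: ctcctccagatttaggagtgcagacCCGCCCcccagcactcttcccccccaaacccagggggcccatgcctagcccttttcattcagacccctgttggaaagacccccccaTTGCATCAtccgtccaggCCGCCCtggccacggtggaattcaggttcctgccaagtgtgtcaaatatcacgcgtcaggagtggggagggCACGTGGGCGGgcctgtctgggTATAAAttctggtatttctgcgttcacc
None of these windows overlaps an annotated exon, and the Fgf10 window lies inside the span of the GENCODE gene, downstream of its first base.

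The Fgf7 window held a CCAAT box at 53 to 49 bases before the start (34.5% of 27025 promoter windows of this length hold CCAAT). The Fgf10 window held a GC box (GGGCGG, 32.9% of windows) at 199 to 194. In Fgf23 the capitals are the C/EBP letters TTGCNNAA at 129 to 122 (9.55% of windows) and the STAT letters TTCNNNGAA at 101 to 93 (7.18%). The Fgf21 window held TATAAA at 28 to 23 (13% of windows), the E-box CACGTG at 50 to 45 (6.05%), 3 GC boxes and the ATF4 letters TGATGNAA at 139 to 132 (3.53%). The E-box and the nearest GC box share 1 letter. Letters for AP-1 (TGANTCA, 6.87% of windows), SMAD (GTCTAGAC, 0.174%), CRE (TGACGTCA, 1.62%) and NF-kB (0.337%) were not found in the 4 windows. For SMAD only this full run was searched and no shorter form. It is held by 47 of 27025 windows, so its absence from the 4 tells little. A match is a run of letters and no evidence of binding. Of the 10 genes, 8 have a RefSeq window in the table used.

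Total counts ran from 22168953 to 29421447 per library. Levels are CPM, read counts per 1000000 of the library after TMM scaling, and a gene was called when its adjusted p was under 0.05 in edgeR's quasi-likelihood test with Benjamini-Hochberg adjustment over 13923 genes, with cell line as a term. All 10 stellate and fibroblast markers stood above 3 counts in every library, summing to 4070 to 20400 CPM. The 8 epithelial markers summed to 15.8 to 23.4 CPM in control, 14.8 to 20.3 with TGF-beta, 20.2 to 175 in CM and 9.7 to 311 in CM with neratinib, and 6 of the 8 were called higher in CM against control. In each of their 3 media (control, CM, and neratinib in CM), libraries labelled PSC4 replicate 1 lay nearer to PSC5 than to the other PSC4 libraries for Fgf23, so results that rest on them are given with and without them. Over all 13923 genes, 970 were called between the lines as labelled, and 6046 with these libraries counted with PSC5. In bulk RNA, fewer cells of a type and less RNA per cell cannot be told apart.

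Per kilobase of exon, Fgfr1 had the highest mean of the 10 transcripts in control medium (45 ± 3.47 CPM per kb, SD, n = 5). Fgf23 lay above it in PSC4 replicate 2 (47.5 against 44.1 CPM per kb) and PSC4 replicate 3 (56.9 against 45.7). By mean, Fgf7 (31.1 ± 2) and Fgf23 (27.1 ± 23.2) followed, and their ranges overlapped. Below them came Fgf2 (7.08 ± 1.38), Fgf10 (3.15 ± 0.649), Fgfr2 (1.35 ± 0.221), Fgfr3 (1.07 ± 0.127), Fgf1 (0.642 ± 0.0908), Fgf18 (0.275 ± 0.175) and Fgf21 (0.169 ± 0.0983). Of these neighbours, Fgfr2 and Fgfr3 overlapped in range, as did Fgf1 and Fgf18, and Fgf18 and Fgf21. The order differed by medium. With TGF-beta it ran Fgfr1 (71.2 ± 4.86), Fgf2 (29 ± 8.36), Fgf21 (7.47 ± 2.39) and Fgf7 (4.72 ± 1.52), with Fgf10 last at 0.133 ± 0.0558, and Fgf21 and Fgf7 overlapped. In CM the leading genes were Fgf23 (71 ± 58.9), Fgf7 (58.7 ± 12.3) and Fgfr1 (56.7 ± 4.98), which overlapped one another. In CM with neratinib Fgfr1 (62.5 ± 18.4), Fgf7 (54.3 ± 13.8) and Fgf23 (48.3 ± 65.3) led, again with overlapping ranges.

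**Figure D1:**
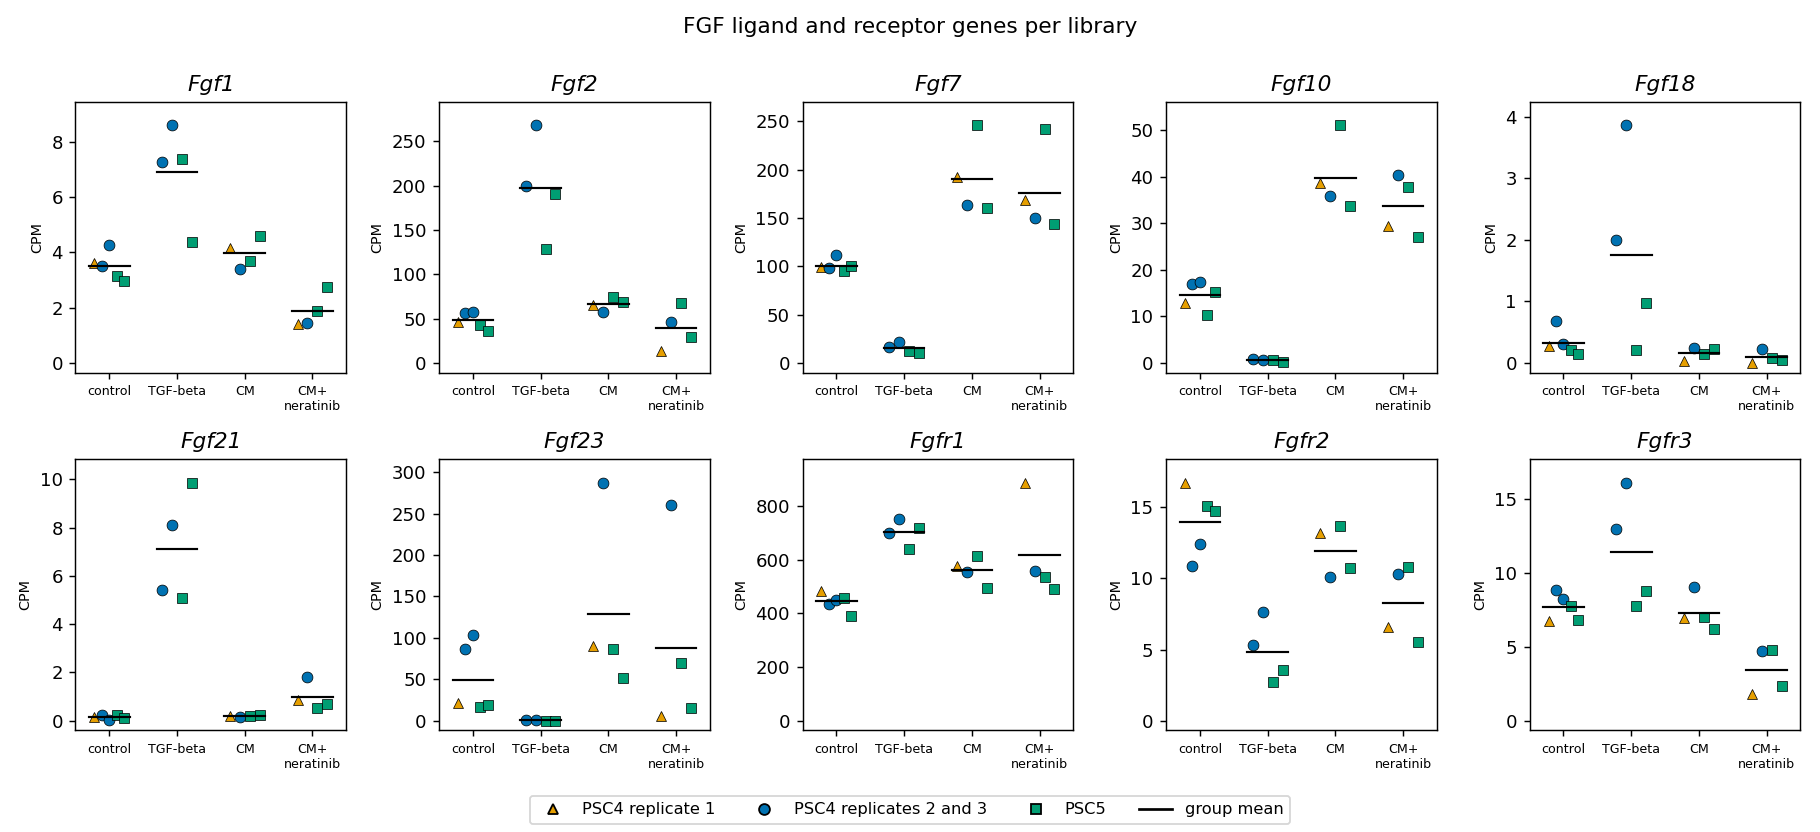
CPM (linear axis from 0) of each of the 10 genes in the 17 libraries, by medium group; symbols mark PSC4 replicate 1, PSC4 replicates 2 and 3, and PSC5, and the black line is the group mean. Fgf7 and Fgf10 are lowest with TGF-beta and higher in both CM groups than in control, while Fgf2 and Fgf21 are highest with TGF-beta.

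Between TGF-beta and control, 8 of the 10 genes had ranges that did not overlap, 4 higher (Fgf1, Fgf2, Fgf21 and Fgfr1) and 4 lower (Fgf7, Fgf10, Fgf23 and Fgfr2) with TGF-beta. Over all 13923 genes, 32.7% had ranges that did not overlap. Since this contrast chose the genes, nothing is read from the count. The median fitted log2 fold change of the 10 was 0.62, beside -0.02 over all genes.

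In CM against control 2 of the 10 genes were called, Fgf7 and Fgf10, both higher, where 14.2% of all genes were called (7.05% higher). The median log2 fold change of the 10 was 0.32 and that of all genes was 0. In CM with neratinib against control 7 were called, 4 higher (Fgf7, Fgf10, Fgf21, Fgfr1) and 3 lower (Fgf1, Fgfr2, Fgfr3), against a background of 43.1% (22.2% higher and 20.9% lower). In CM with neratinib against CM 3 were called, Fgf21 higher and Fgf1 and Fgfr3 lower, against 20.5% of all genes (10.8% higher, 9.63% lower). The first 2 of these comparisons share their 5 control libraries. With replicate number and line as a block, 4 of the 10 were called in CM against control, Fgf23 and Fgfr1 being added. That fit called 3240 of 13923 genes, beside 1976 in the main fit.

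**Figure D2:**
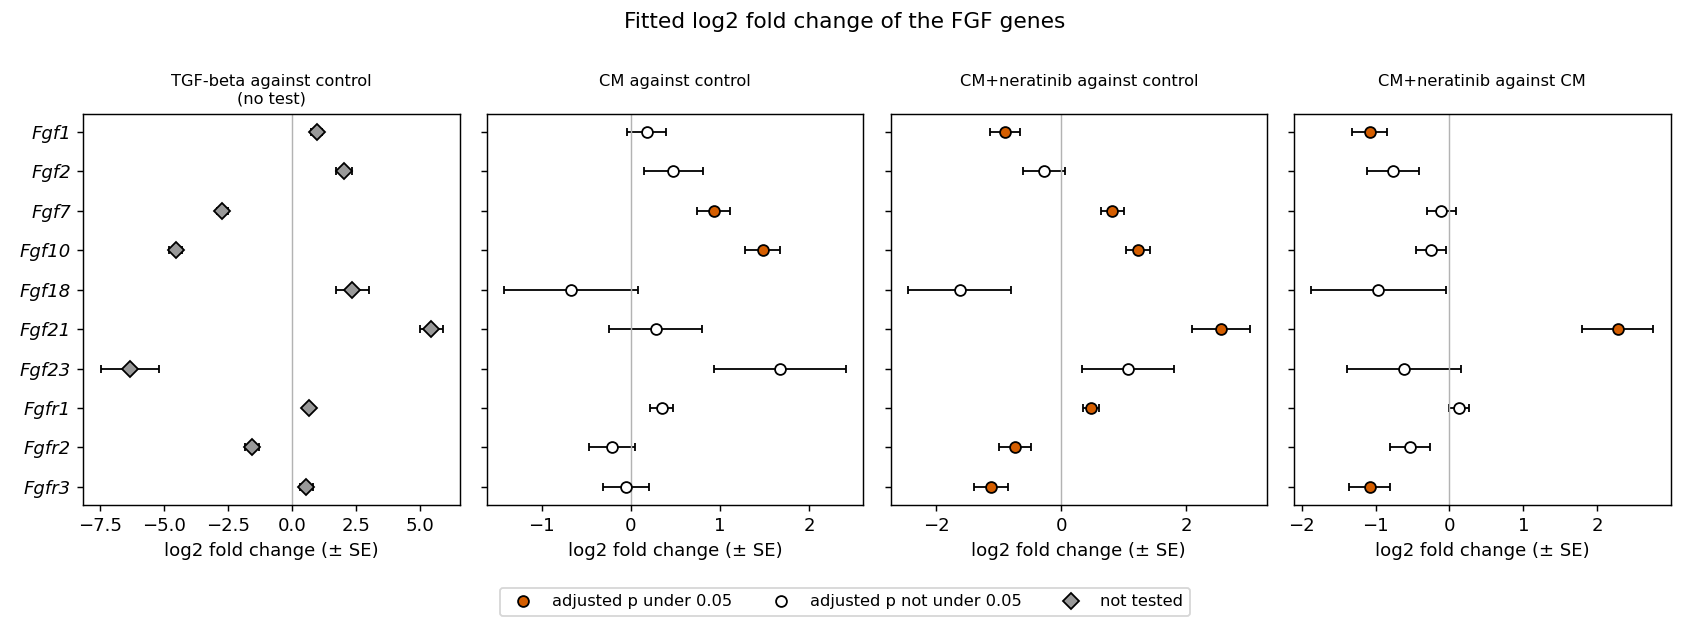
Fitted log2 fold change (x axis, bars ± SE) of the 10 genes in the 4 comparisons, with the scale of each panel its own; filled orange circles have an adjusted p under 0.05, open circles do not, and grey diamonds mark the untested TGF-beta contrast. Fgf7 and Fgf10 lie below 0 with TGF-beta and above 0 in both CM groups against control.

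Fgf7 and Fgf10, the mesenchymal ligands of epithelial FGFR2, were lower with TGF-beta and rose in tumour conditioned medium with or without neratinib. Fgf7 (ENSMUSG00000027208, chr2:126034658-126091185) was even among controls, at 99.1, 98.2 and 112 CPM in PSC4 replicates 1 to 3 and 95.3 and 100 in PSC5 replicates 1 and 2. With TGF-beta it stood at 17 and 21.5 CPM in PSC4 replicates 2 and 3 and at 12.3 and 10.5 in PSC5, below every control. The fitted difference was -2.72 (log2, SE 0.22), 6.57-fold lower.

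In CM, Fgf7 stood at 193 and 164 CPM in PSC4 replicates 1 and 2 and at 246 and 160 in PSC5 replicates 1 and 2, above every control. The fitted log2 fold change was 0.93 (SE 0.19, adjusted p = 0.00697, 1.9-fold), higher in 4 of 4 libraries. With neratinib the levels were 169, 150, 242 and 144 CPM in the same order, again all above control (log2 fold change 0.82, SE 0.19, adjusted p = 0.004). Neratinib against CM gave -0.11 for Fgf7 (SE 0.2, adjusted p = 0.745), with ratios of 1.02- to 1.14-fold lower in the 4 pairs of the same line and number.

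Fgf10 (ENSMUSG00000021732, chr13:118669791-118792115) followed the same order at a lower level. Controls held 12.8, 16.9 and 17.4 CPM in PSC4 and 10.3 and 15.2 in PSC5. With TGF-beta it was 0.902 and 0.578 CPM in PSC4 and 0.688 and 0.285 in PSC5, which is 7 to 24 counts. The groups lay far apart, with a fitted log2 fold change of -4.54 (SE 0.27, 23.2-fold lower). In CM the levels were 38.6 and 35.9 CPM in PSC4 and 51 and 33.6 in PSC5, all above control. Fgf10 thus rose 2.78-fold (log2 1.48, SE 0.2, adjusted p = 0.000363). With neratinib the levels were 29.5, 40.3, 37.8 and 27.1 CPM, a log2 fold change of 1.23 over control (SE 0.19, adjusted p = 0.000234). The difference from CM was -0.25 (SE 0.2, adjusted p = 0.42).

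Within the 2 CM groups, summed epithelial markers were 140 to 311 CPM in T6 libraries and 9.7 to 50.2 CPM in T8 libraries. Krt8, a keratin of simple epithelia, was at 0 counts in 4 of 5 controls and reached 43.5 and 39.3 CPM in the T6 libraries of CM, but 0.408 and 5.62 CPM in the T8 libraries. The library with 0.408 CPM of Krt8 (CM, PSC4 replicate 1) held Fgf7 at 193 and Fgf10 at 38.6 CPM. The neratinib library of PSC4 replicate 1 held no Krt8 count and had Fgf7 at 169 and Fgf10 at 29.5 CPM. In both libraries Fgf7 and Fgf10 lay above every control, as in all other CM and neratinib libraries. The part of epithelial RNA in these levels was not tested.

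Fgf23 (ENSMUSG00000000182, chr6:127072902-127081408) varied widely between libraries of 1 medium. Controls held 86.2 and 103 CPM in PSC4 replicates 2 and 3, against 21.5 in PSC4 replicate 1 and 16.1 and 19 in PSC5. With TGF-beta it was 1.31 and 0.795 CPM in PSC4 and 0.086 and 0 in PSC5, the last being 2 counts and 0 counts. The 0 counts, of 25135402, allow up to 3 counts, or 0.122 CPM. Every TGF-beta library lay below every control. The ratio to the control of the same line and number was 65.5- and 130-fold lower in PSC4, and, set against 3 counts, at least 125- and at least 156-fold lower in PSC5. The fitted log2 fold change was -6.33 (SE 1.14).

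In CM, Fgf23 reached 90 and 287 CPM in PSC4 replicates 1 and 2 and 86.4 and 51.8 in PSC5 replicates 1 and 2. These ranges overlapped control. Within pairs of the same line and number CM was higher in 4 of 4, by 4.19- and 3.33-fold in PSC4 and 5.37- and 2.72-fold in PSC5. Without the pairing the difference did not pass (log2 fold change 1.68, SE 0.74, adjusted p = 0.149). With the block of line and number it did (1.9, SE 0.51, adjusted p = 0.0201). It also passed with only the groups compared (1.66, adjusted p = 0.0401). Removing the 3 PSC4 replicate 1 libraries gave 1.85 (adjusted p = 0.00677), and counting them with PSC5 gave 1.96 (adjusted p = 0.0112). These libraries were set apart by their own Fgf23 level, so neither of these fits adds support for Fgf23. Over all alternatives the adjusted p ran from 0.00677 to 0.359.

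With neratinib in CM, Fgf23 spread from 5.11 CPM in PSC4 replicate 1 to 260 in PSC4 replicate 2, with 69.7 and 15.4 in PSC5 replicates 1 and 2. Against CM it was lower in 4 of 4 pairs, by 17.6- and 1.1-fold in PSC4 and by 1.24- and 3.36-fold in PSC5. The fitted difference, -0.61 (SE 0.77, adjusted p = 0.619), was within the spread. Against control the log2 fold change was 1.07 (SE 0.74, adjusted p = 0.256), higher in 2 of 4 pairs. That difference passed only in fits without the neratinib library of PSC4 replicate 1. With the 3 libraries of PSC4 replicate 1 removed the change was 1.34 (adjusted p = 0.013), and without only the neratinib library it was 1.52 (adjusted p = 0.0364). Since Fgf23 itself set these 3 libraries apart, the fit without them adds no support for a rise of Fgf23. The other 17 of 19 alternatives did not pass.

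**Figure D3:**
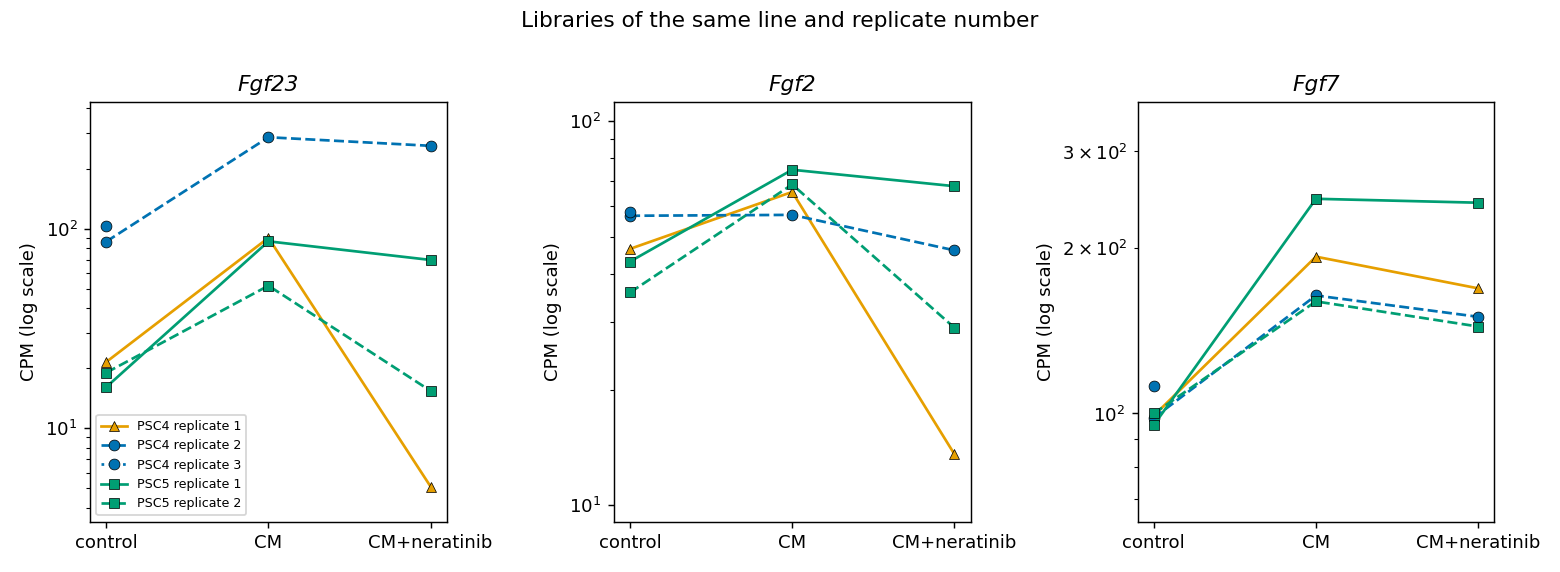
CPM (log axis) of Fgf23, Fgf2 and Fgf7 in control, CM and CM with neratinib, each line joining libraries of the same cell line and replicate number; PSC4 replicate 3 is a control only. Fgf23 goes up from control to CM along all 4 lines and drops steeply with neratinib along PSC4 replicate 1 and PSC5 replicate 2.

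Fgf2 and Fgf1, the ligands without a signal peptide, were higher with TGF-beta. Fgf2 (ENSMUSG00000037225, chr3:37348346-37410108) stood at 46.5, 56.7 and 58 CPM in PSC4 controls and 43.1 and 35.8 in PSC5 controls. TGF-beta libraries held 200 and 268 CPM in PSC4 and 129 and 191 in PSC5, all above control (log2 fold change 2.04, SE 0.33, 4.11-fold).

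CM libraries held Fgf2 at 65.4 and 57 CPM in PSC4 and 74.7 and 68.4 in PSC5, overlapping control (0.48, SE 0.33, adjusted p = 0.375). With only the groups compared the adjusted p was 0.0415, and the other 18 of 19 alternatives did not pass. With neratinib Fgf2 was 13.6 and 46.1 CPM in PSC4 and 67.7 and 29 in PSC5. It was lower than in CM in 4 of 4 pairs, but the difference did not pass (-0.76, SE 0.35, adjusted p = 0.139). Without the neratinib library of PSC5 replicate 1 it was -1.21 (adjusted p = 0.0134), and the other 17 of 18 alternatives did not pass. Exons of Fgf2 share 640 bases with Nudt6 on the opposite strand, which had 61 to 109 counts per library against 319 to 7407 for Fgf2, and no source used here states whether counting used strand.

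Fgf1 (ENSMUSG00000036585, chr18:38838673-38929472) was scarcer. Its controls ran from 2.98 to 4.26 CPM (median 3.5, n = 5). TGF-beta libraries held 7.29, 8.6, 7.4 and 4.39 CPM, all above control, 1.97-fold by the fit (log2 0.98, SE 0.22). CM libraries held 4.18, 3.39, 3.71 and 4.59 CPM, within or just above the control range (0.18, SE 0.22, adjusted p = 0.638). With neratinib Fgf1 was 1.4, 1.44, 1.9 and 2.75 CPM, below every control and every CM library. It fell by 0.9 (log2) against control (SE 0.24, adjusted p = 0.00692) and by 1.08 against CM (SE 0.24, adjusted p = 0.00682), lower in 4 of 4 libraries both times.

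Fgf21 and Fgf18, of few counts in control medium, were highest in TGF-beta libraries. Fgf21 (ENSMUSG00000030827, chr7:45613886-45615490) had 1 to 7 counts in the 5 controls (mean 0.16 CPM) and 118 to 242 counts with TGF-beta (5.41 and 8.09 CPM in PSC4, 5.07 and 9.85 in PSC5). The fitted log2 fold change was 5.45 (SE 0.45), from a control level of few counts. CM libraries held 4 to 7 counts, close to the control level. Neratinib libraries held 20 and 47 counts in PSC4 and 12 and 15 in PSC5, above every library of control and CM. Fgf21 rose with neratinib by 2.28 (log2) against CM (SE 0.48, adjusted p = 0.00491) and by 2.56 against control (SE 0.46, adjusted p = 0.000552), in 4 of 4 pairs.

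Fgf18 (ENSMUSG00000057967, chr11:33117430-33147400), a ligand of bone and lung development, had 4 to 19 counts in controls. TGF-beta libraries held 53 and 107 counts in PSC4 and 5 and 24 in PSC5, so the ranges overlapped (log2 fold change 2.36, SE 0.64). It had 1 to 7 counts in CM and 0 to 6 with neratinib. No tested comparison of media passed for Fgf18, and at these counts only large differences were detectable.

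Of the receptors, Fgfr1, the main mesenchymal receptor, was higher with TGF-beta and Fgfr2 was lower, and neratinib libraries had less Fgfr2 and Fgfr3 than control. Gene counts do not separate the splice forms of the receptors. Fgfr1 (ENSMUSG00000031565, chr8:25513654-25575718) stood at 485, 436 and 451 CPM in PSC4 controls and 459 and 392 in PSC5. TGF-beta libraries held 700, 753, 639 and 720 CPM, all above control (log2 fold change 0.68, SE 0.13, 1.6-fold). In CM Fgfr1 was 578 and 556 CPM in PSC4 and 612 and 495 in PSC5, again above every control, and higher in 4 of 4 pairs. The difference missed the threshold (0.35, SE 0.13, adjusted p = 0.074) and passed with the block of line and number (0.35, SE 0.11, adjusted p = 0.0401). It also passed in DESeq2 (adjusted p = 0.0323), with only the groups compared (0.0188) and with the 3 PSC4 replicate 1 libraries removed (0.0121). The other 15 of 19 alternatives did not pass.

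With neratinib Fgfr1 was 886 CPM in PSC4 replicate 1 and 557, 536 and 490 in the others. It rose by 0.48 (log2) against control (SE 0.13, adjusted p = 0.00702) and stayed called under each of 19 alternatives. Without the library at 886 CPM the change was 0.27 (SE 0.08), and with the 3 PSC4 replicate 1 libraries removed it was 0.29 (SE 0.08, adjusted p = 0.0155). Against CM it differed by 0.13 (SE 0.13, adjusted p = 0.544).

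Fgfr2 (ENSMUSG00000030849, chr7:130162451-133123350) held 16.7, 10.9 and 12.4 CPM in PSC4 controls and 15.1 and 14.7 in PSC5. TGF-beta libraries held 5.33 and 7.62 CPM in PSC4 and 2.75 and 3.54 in PSC5, below every control (log2 fold change -1.54, SE 0.27). CM libraries held 13.2, 10.1, 13.7 and 10.7 CPM, overlapping control (-0.21, SE 0.26, adjusted p = 0.632). With neratinib the levels were 6.55 and 10.3 CPM in PSC4 and 10.8 and 5.54 in PSC5. Fgfr2 fell by 0.74 against control (SE 0.26, adjusted p = 0.0334), but 6 of 19 alternatives ended this call. These were the removal of the 3 libraries of PSC4 replicate 1 (adjusted p = 0.151) and leaving out the neratinib library of PSC4 replicate 1 (0.105) or PSC5 replicate 2 (0.101), or the control of PSC4 replicate 1 (0.0615), PSC5 replicate 1 (0.0758) or PSC5 replicate 2 (0.0733). The same-strand gene Ctbp2, at 1144 to 1585 counts, shares 314 exon bases with Fgfr2.

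Fgfr3 (ENSMUSG00000054252, chr5:33721674-33737068) held 6.76 to 8.87 CPM in controls. TGF-beta libraries held 13 and 16.1 CPM in PSC4 but 7.74 and 8.75 in PSC5, so the ranges overlapped (log2 fold change 0.56, SE 0.25). In CM the levels were 6.97, 9.03, 7.04 and 6.24 CPM, with no detectable difference from control (-0.05, SE 0.26, adjusted p = 0.922). With neratinib they were 1.83, 4.75, 4.76 and 2.34 CPM, below every other library. Fgfr3 fell by 1.13 against control (SE 0.27, adjusted p = 0.00384) and by 1.08 against CM (SE 0.28, adjusted p = 0.0143), and the second call was lost when only the groups compared were fitted (adjusted p = 0.0983). An opposite-strand gene, G630022F23Rik, shares 998 exon bases with Fgfr3, and its reads cannot be told apart there without strand.

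Within the neratinib group, PSC4 replicate 1 and PSC5 replicate 2 were the 2 lowest libraries for 6 of the 10 genes (Fgf2, Fgf10, Fgf18, Fgf23, Fgfr2 and Fgfr3), a pattern seen after the values were known. These libraries did not share a medium code or, as labelled, a line. They were also the lowest of the group in summed stellate markers (4310 and 4070 CPM, against 5330 and 6780) and in Pdgfra, a fibroblast receptor (60.5 and 119 CPM, against 336 and 276). Of the 5 leukocyte and macrophage markers, 3 were above 3 counts. Their sum was 13.5 CPM in neratinib PSC4 replicate 1 and 2.72 to 3.67 CPM in the other neratinib libraries, and 12.3 of the 13.5 CPM were Cd68, while Adgre1 and Ptprc were at 0 in the neratinib group. The part of these markers in the FGF levels was not tested.

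The cell lines differed most for Fgf23. In control medium the 2 libraries of PSC4 replicates 2 and 3 averaged 94.7 CPM against 17.6 in PSC5, and PSC4 replicate 1 held 21.5. The line term, adjusted for medium, was 1.79 for Fgf23 (PSC4 over PSC5, log2, SE 0.62, adjusted p = 0.0797), and 0 of the 10 genes were called (6.97% of all genes), with 2 at an unadjusted p under 0.05. DESeq2 called 1 of the 10, Fgf23, and 2234 of all 13923 genes. With the 3 PSC4 replicate 1 libraries removed the term for Fgf23 was 2.42 (adjusted p = 8.82e-05), Fgf18 was 1.65 (adjusted p = 0.00731) and Fgfr3 0.49 (adjusted p = 0.0155), all higher in PSC4. That fit called 5980 of 14049 genes for line. Those libraries were set apart by their Fgf23 level, so the fit without them adds no support for Fgf23. Interactions of CM or of neratinib with line gave 0 calls among the 10 in edgeR and in DESeq2, and 0 at an unadjusted p under 0.05 in edgeR, where 0% of all genes were called in either.

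Between the medium codes T6 and T8, averaged over CM with and without neratinib, 0 of the 10 genes were called in edgeR or DESeq2 (0.575% of all genes in edgeR). At an unadjusted p under 0.05 in edgeR there were 2, Fgf7 and Fgfr1, both lower in T6. Fgf7 differed by -0.47 (log2, SE 0.18, adjusted p = 0.289) and Fgfr1 by -0.31 (SE 0.11, adjusted p = 0.262). Fgf7 was called with the 3 PSC4 replicate 1 libraries removed, and Fgf23 and Fgfr1 without the neratinib library of PSC5 replicate 1.

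Other genes of FGF signalling were taken from 6 lists of 79 genes, of which 57 passed the filter. TGF-beta against control gave 23 calls upward and 11 downward among the 57, followed by 11 and 10 in CM against control, 13 and 16 in CM with neratinib against control, and 3 and 6 in neratinib against CM. The share of all genes called in TGF-beta against control was 40.2% (19.7% higher, 20.5% lower).

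Few other ligands and receptors were measurable. Of 15 further FGF genes 2 passed the filter, Fgf11 and Fgf14, which encode intracellular FGF homologues. With TGF-beta Fgf11 rose (log2 fold change 1.21, SE 0.41, adjusted p = 0.0297) and Fgf14, at 0 to 33 counts in controls and 0 to 4 with TGF-beta, fell by 3.82 (SE 1.27, adjusted p = 0.0259). Of 4 receptor and co-receptor genes only Fgfrl1, a receptor without a kinase domain, passed the filter. It was higher with TGF-beta (0.81, SE 0.11, adjusted p = 5.94e-05) and lower in CM (-0.45, SE 0.12, adjusted p = 0.0203). Kl, which encodes Klotho, had 0 to 2 counts per library and was at 0 in 15 of 17. Klb (beta-Klotho) had 0 to 4 counts, and Fgfr4 0 to 7.

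**Figure D4:**
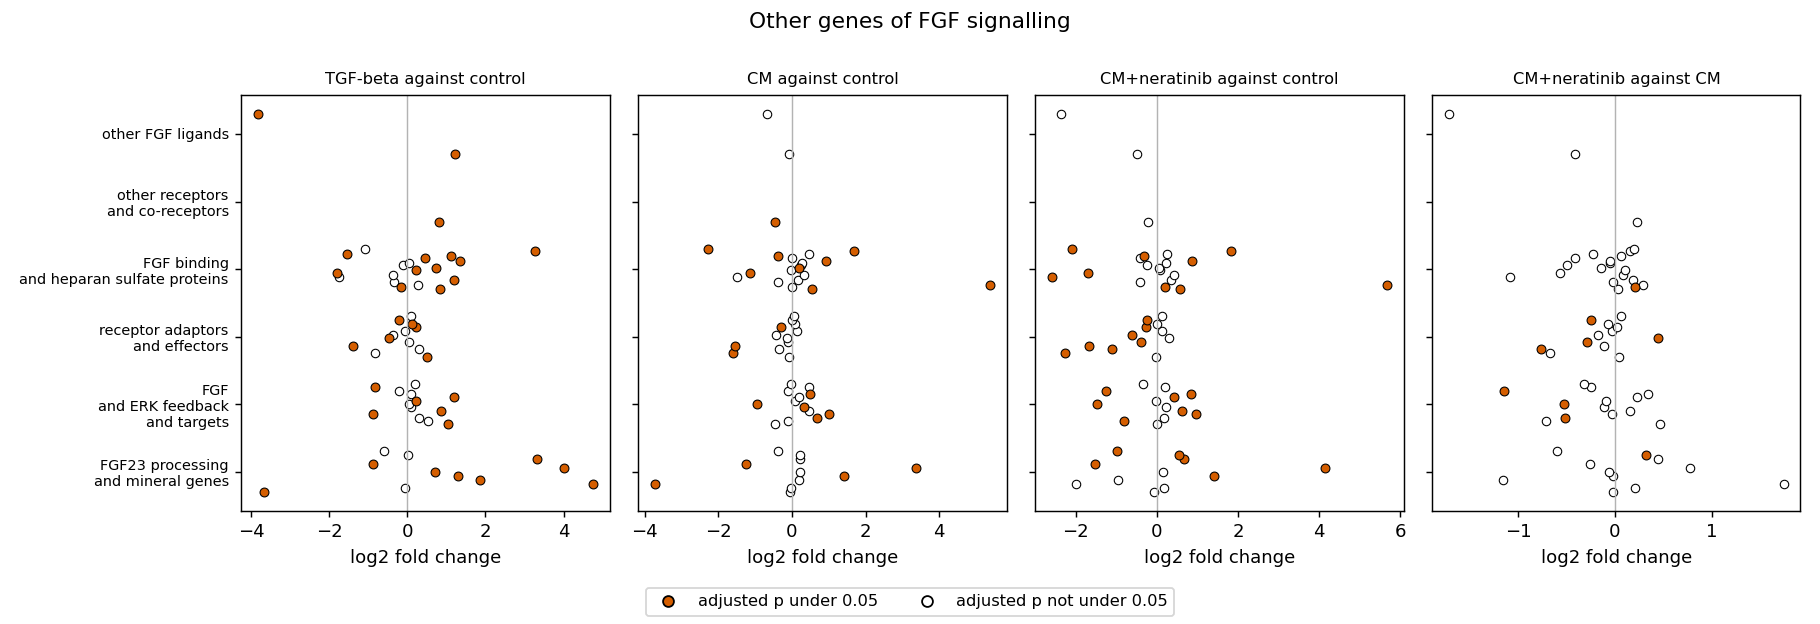
Fitted log2 fold change (x axis, own scale in each panel) of the 57 other tested genes by list and comparison; each circle is a gene, filled orange where the adjusted p is under 0.05. With TGF-beta, Dmp1 (4.75) and Galnt3 (4.02) of the mineral list and Fgf14 (-3.82) of the other ligands lie farthest from 0.

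Among 19 FGF-binding and heparan sulfate genes, 18 were tested. With TGF-beta 8 were higher and 3 lower (median log2 fold change 0.13, beside -0.02 for all genes). Sulf1, a sulfatase that trims heparan sulfate, rose from 15 to 143 CPM on average (log2 fold change 3.26, SE 0.37, adjusted p = 9.18e-06), and Gpc6, a glypican, fell from 98.4 to 27.8 CPM (-1.81, SE 0.23, adjusted p = 2.5e-05). In CM 5 were higher and 3 lower (median 0.18). Sulf1 rose to 47.3 CPM (1.68, SE 0.36, adjusted p = 0.00773), while its relative Sulf2 fell from 151 to 30.5 CPM (-2.29, SE 0.55, adjusted p = 0.0148). Fgfbp1, a carrier that frees FGFs from the matrix, had 0 to 1 count in controls and 0 to 30 in CM, at least 4.58-fold higher on average against 3 counts per library (adjusted p = 0.0301).

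Against CM, neratinib left 1 of the 18 higher and 0 lower (median 0.01). In CM with neratinib against control 5 were higher and 4 lower (median 0.14). Fgfbp1 was at least 5.94-fold higher than control by the same floor (adjusted p = 0.00789). Sulf1 rose (1.83, SE 0.36, adjusted p = 0.00114) and Sulf2 (-2.09, SE 0.55, adjusted p = 0.00721), Gpc6 (-1.7, SE 0.23, adjusted p = 7.34e-05) and Gpc3 (-2.58, SE 0.82, adjusted p = 0.0204) fell. Fgfbp1 was also higher in T6 than T8 media (4.11, SE 0.69, adjusted p = 0.0202), as were 6 of 8 epithelial markers, and their part in its change was not tested.

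Of 12 adaptors and effectors, all tested, 3 were higher and 3 lower with TGF-beta (median log2 fold change -0.01). In CM against control 0 were higher and 3 lower, where 994 of all 13923 genes were called lower. In CM with neratinib against control 0 were higher and 7 lower, where 2913 of all genes were called lower. The medians of the list were -0.13 and -0.26, beside 0 for all genes. The FLRT membrane proteins, which bind FGF receptors, included the largest of these falls in the list: in CM Flrt1 fell from 4.84 to 1.6 CPM (-1.59, SE 0.47, adjusted p = 0.0375) and Flrt3 from 7.32 to 2.66 CPM (-1.55, SE 0.39, adjusted p = 0.0168). In CM with neratinib against control Flrt1 fell by 2.26 (SE 0.5, adjusted p = 0.00241) and Flrt3 by 1.66 (SE 0.39, adjusted p = 0.00369). Against CM, neratinib left 1 of the 12 higher and 3 lower (median -0.09), where 1341 of all genes were called lower.

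Feedback inhibitors and targets of ERK signalling (13 of 14 tested) did not move one way: 4 were higher and 2 lower with TGF-beta, 4 and 1 in CM, and 4 and 3 with neratinib against control (medians 0.2, 0.2 and 0.18). Against CM, neratinib left 0 higher and 3 lower (median -0.11). These were Spry1, an inhibitor of receptor kinase signalling, which fell from 24.6 to 11.2 CPM (-1.14, SE 0.3, adjusted p = 0.0154), and, named after their values were seen, Il17rd (-0.53, SE 0.15, adjusted p = 0.021) and Dusp6 (-0.51, SE 0.15, adjusted p = 0.0279), an ERK phosphatase.

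Of the genes of FGF23 processing and mineral balance, 11 of 15 were tested, and 6 were higher and 2 lower with TGF-beta (median 0.7). Galnt3, the glycosyltransferase that protects FGF23 from cleavage, had 1 to 5 counts in controls and 15 to 71 with TGF-beta (4.02, SE 0.84, adjusted p = 0.00152). Dmp1, a bone matrix protein, had 2 to 7 counts in controls and 65 to 239 with TGF-beta (4.75, SE 0.53, adjusted p = 7.35e-06). The phosphate transporter Slc20a1 rose from 56.1 to 552 CPM (3.32, SE 0.17, adjusted p = 4.12e-09) and Enpp1, which makes pyrophosphate, from 103 to 374 CPM (1.86, SE 0.41, adjusted p = 0.00197). Alpl, the phosphatase that removes it, fell from 3.09 to 0.236 CPM (-3.67, SE 0.54, adjusted p = 8.91e-05). The 6 osteoblast and osteocyte markers, Dmp1 among them, summed to 2.9 to 4 CPM in control and 5.25 to 11.5 with TGF-beta, mostly through Dmp1 (mean 0.172 and 4.84 CPM). Sp7 was also called higher with TGF-beta (0.289 and 1.08 CPM, adjusted p = 0.0102), Phex was called lower (2.55 and 1.38 CPM, adjusted p = 0.0155), Bglap averaged 0.268 and 0.0687 CPM, and Ibsp had 0 to 1 count.

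In CM 2 of the 11 were higher and 2 lower (median 0.2). Galnt3 had 9 to 51 counts (3.36, SE 0.85, adjusted p = 0.0184), and Fam20c, the kinase that marks FGF23 for cleavage, rose from 37.9 to 98.5 CPM (1.41, SE 0.18, adjusted p = 0.000318). Dmp1 had 0 to 1 count, at least 1.63-fold lower than control against 3 counts per library (adjusted p = 0.0181). In CM with neratinib against control 4 were higher and 2 lower, Galnt3 among the former (4.14, SE 0.86, adjusted p = 0.00164). Against CM, neratinib left 1 higher and 0 lower. Galnt3 was also called higher in T6 than T8 media (2.46, SE 0.5, adjusted p = 0.0482), with the epithelial markers, whose part was not tested. In the T8 libraries of PSC4 replicate 1, where Krt8 was at 12 counts in CM and 0 with neratinib, Galnt3 had 9 and 8 counts, against 1 to 5 in controls.

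The genes whose log2 CPM ran most like each of the 10 over the 17 libraries were ranked by Pearson's r among 12410 genes of at least 1 CPM on average. These r values share the media contrasts and libraries and are descriptions only. For Fgf23 they were Limch1 (0.979), Ell (0.978) and Gdpd2 (0.97), and with group means removed r was still 0.909, 0.9 and 0.937. For Fgf7 they were Ccl7 (0.989), Nfkbia (0.983) and Mgst1 (0.981), with 0.89, 0.668 and 0.398 once group means were removed. Mgst1 (0.989) also headed the list for Fgf10, before Thbd (0.986) and Pak3 (0.984). Among the genes most like Fgf2 were Pdgfrl (0.968) and Bgn (0.942), and with group means removed these gave 0.892 and 0.806.

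The other genes were ranked the same way. Fgf1 had Krcc1 (0.912), Gskip (0.897) and Depdc1a (0.894), Fgf18 had Sptb (0.946), Mamld1 (0.941) and Foxo1 (0.939), and Fgf21 had Msn (0.949), Itgb1 (0.949) and Rab6a (0.947). For Itgb1 and Fgf21 r was -0.004 with group means removed, so the likeness lay between the groups alone. Fgfr1 ran most like Mtpn (0.934), Mapk6 (0.928) and Tmf1 (0.918), Fgfr2 like Pet100 (0.949), Tbc1d24 (0.926) and Tmed1 (0.925), and Fgfr3 like Pianp (0.955), Vti1a (0.951) and Nedd9 (0.95).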

How the data were processed

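RNA was measured by sequencing in 17 libraries. The authors deposited expected counts per gene, estimated from the reads and not whole in 74.8% of nonzero entries. The submitters' processing notes list Salmon 1.4.0, DESeq 2 and the builds GRCm38 and mm10, with no role stated, and strand handling is not given in the sources used here. Expected counts were rounded to whole numbers, genes filtered with edgeR's filterByExpr (minimum count 10, minimum total 15) and tested with edgeR 4.0.16 (R 4.3.3, limma 3.58.1), quasi-likelihood test, TMM scaling, group and cell line as terms, all 17 libraries in 1 fit and Benjamini-Hochberg adjustment over 13923 genes. The SE of a log2 fold change was its size divided by the square root of F. Levels are CPM with TMM-scaled library sizes of 22168953 to 29421447 counts before scaling. A count of 3, the limit a count of 0 allows, equals 0.101 to 0.137 CPM, for counting error only. The fits were tested on simulated data. Positions and exon lengths are from GENCODE M21 (GRCm38).

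The 10 genes, the gene lists and the tests were chosen with earlier results of these data known. From the lists, called genes with a log2 fold change of at least 1 in size were named, at most 8 per comparison, and the 3 most alike genes for each of the 10 (1 of those for Fgf2 is not reported here). Same-numbered libraries of a line were taken as pairs: in all 22 pairs the deviations from the group means correlated above 0.1 over genes (median 0.299, lowest 0.12). The alternatives were DESeq2 1.42.0, other size factors (RLE, upper quartile), no filter, unrounded counts, only the groups compared, no line term, the replicate block, relabelling or removing the 3 PSC4 replicate 1 libraries, and leaving out each library. CM was not compared with TGF-beta.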

Additional observations from a re-analysis of the deposited data

Results flagged for a closer look

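Of 40 groups of 4 or 5 values (10 genes in 4 media), 3 held a library apart from the rest, where chance alone marks about 1 in 20. Fgf7 in control PSC4 replicate 3 was 112 CPM, above the other 4 controls at 95.3 to 100 CPM, with a gap of 0.725 of the range (limit 0.71). Fgf23 in CM PSC4 replicate 2 was 287 CPM, above the others at 51.8 to 90 CPM (0.838, limit 0.829). Fgfr1 in CM with neratinib, PSC4 replicate 1, was 886 CPM, above the others at 490 to 557 CPM (0.831, limit 0.829).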

How the results depend on the processing

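Among tested values of single genes under the alternatives, 588 kept their direction and side of the threshold, 7 no longer passed, 22 newly passed and 8 reversed. This tally covers the tested comparisons of media, and only Fgf18, Fgf23 and Fgfr3 between the lines. It leaves out T6 against T8 and the interactions. All 189 TGF-beta differences kept their sign. The reversed values lay near 0: Fgfr3 in CM against control was 0.02 with the replicate block and -0.12 to 0.02 leaving out 1 library (0.01 without control PSC5 replicate 1); Fgf2 in neratinib against control was 0.04 with the 3 PSC4 replicate 1 libraries removed and -0.7 to 0.06 leaving out 1 library; Fgfr1 in neratinib against CM was -0.07 with the 3 removed and -0.07 to 0.21 leaving out 1 library; and Fgf7 there was -0.34 to 0.07 leaving out 1 library.

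The count of the 10 genes called in CM against control, 2, became 5 with only the groups compared, 4 with the replicate block and 4 with the 3 PSC4 replicate 1 libraries removed. Over all genes these fits called 2764 of 13436, 3240 of 13923 and 2543 of 14049. The line count, 0, became 1 with DESeq2 and 3 with those libraries counted with PSC5 or removed, and 0 to 1 leaving out 1 library (1, Fgf23, without PSC4 replicate 1 of control, CM or neratinib). The T6 against T8 count, 0, became 1 with the 3 removed and 0 to 2 leaving out 1 library. Counts in neratinib against control (6 to 7) and against CM (3 to 4) moved little leaving out 1 library.

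Over all genes, the 1976 calls in CM against control became 3240 with the replicate block and 2986 with PSC4 replicate 1 counted with PSC5. Leaving out 1 library they were 801 (CM PSC5 replicate 1) to 1793, with 1269 without CM PSC4 replicate 2 and 1204 and 1219 without control PSC5 replicates 1 and 2. The 2850 calls in neratinib against CM became 602 with only the groups compared and 4563 with the block, and 1748 (without neratinib PSC5 replicate 2) to 3685 leaving out 1 library, with 1782 without CM PSC4 replicate 1. The 970 calls between the lines became 2234 with DESeq2, 6046 with PSC4 replicate 1 counted with PSC5 and 5980 of 14049 with those libraries removed. The replicate block changed no call of the 10 genes other than Fgf23 and Fgfr1 in CM against control. Upper-quartile scaling moved the share of calls that were higher from 49.7% to 37.5% in CM against control and from 51.4% to 41.1% in neratinib against control. Of the 3 most alike genes, Spearman ranking kept 2 for Fgf2, 1 each for Fgf18, Fgf23 and Fgfr3 and 0 for the rest, and removing group means kept 0. The causes were not tested. Counts under about 20 per library limit Fgf18 and Fgf21.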
